A study of Mus musculus with 5 samples.

Results

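The zinc finger genes numbered Zfp600 to Zfp999 were examined for H3K27ac, a histone acetylation found at active promoters and enhancers, in regulatory T (Treg) cells of the mouse large intestine. Members were the protein-coding genes of the GENCODE M21 annotation of mm10 whose symbol is Zfp followed by a number in that range and nothing else, which gave 171 of 21951 protein-coding genes. Peaks up to 3 kb from any transcription start site of a member were taken as its promoter peaks, and its gene body peaks were the others that overlap its span. H3K27ac had been profiled by CUT&Tag, in which an antibody directs a transposase to the mark, in Treg cells (CD3+ CD4+ Foxp3-YFP+) of C57BL/6 mice at 2 weeks of age. In all mice Foxp3, the gene of the transcription factor that defines Treg cells, drove Cre, so that floxed Setd2 was deleted in Foxp3-expressing cells. The Ctrl group carried 1 floxed and 1 normal allele of Setd2 and the KO group 2 floxed alleles, and Ctrl cells were therefore not Setd2 wild type. Each group held 2 libraries of 60000 cells, each sorted from 3 to 5 mice with females and males pooled. The question addressed was whether H3K27ac at these genes differed after loss of Setd2, the enzyme that places trimethylation on lysine 36 of histone H3 over transcribed genes.

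C2H2 zinc finger proteins bind DNA through repeated fingers, each held together by a zinc ion. In many of them a KRAB domain recruits the corepressor Trim28 and, through it, the H3K9 methyltransferase Setdb1, and proteins of this kind silence transposable elements such as endogenous retroviruses. Their genes arose largely by local duplication and often sit in tandem clusters, and H3K36 trimethylation is known to be found over the bodies of zinc finger genes.

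Library totals lay between 2395002 and 4712473 counts in peaks. Values are CPM, relative to the counts in tested peaks after TMM scaling, and each pair of values is library 1 and then library 2 of a group. The 7 Treg and T cell markers all had a promoter peak, with a summed promoter level of 912 to 1340 CPM over the libraries. By group that sum was 912 and 1060 CPM in Ctrl and 1070 and 1340 CPM in KO. Of the other cell types, the promoters of 4 B cell markers summed to 13.1 to 24.4 CPM, of 4 myeloid markers to 7.74 to 24.0, of 2 CD8 T cell markers to 6.25 to 11.3 and of 5 epithelial markers to 9.95 to 14.5 CPM, and Ms4a1, Pax5, Csf1r, Lyz2, Cd8a, Cdx1 and Cdx2 had no promoter peak. The 4 stromal and endothelial markers summed to 80.5 to 108 CPM, of which Pecam1 alone gave 74.6 to 107 CPM, while Pdgfra and Cdh5 lay between 0.0 and 5.65 CPM and Col1a1 had no promoter peak. Gene bodies gave larger sums, with 153 to 253 CPM for the B cell markers, nearly all from Cd79a (145 to 247 CPM, beside 140 to 244 CPM for Foxp3), and 511 to 973 CPM for the stromal markers, nearly all from Pecam1. The part of other cell types in the member values was not tested. In bulk cells such as these, fewer cells with a mark and less mark per cell cannot be told apart. H3K27ac counts do not test the deletion of Setd2 itself.

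The proteins translated from the annotated coding sequences divided the members. A KRAB box, scored as at least 11 of 14 conserved positions, was found in 116 members and not in 55. Members with the box held a median of 11 C2H2 fingers and the others a median of 7, with up to 33 in Zfp619. The genes stood on 20 chromosomes, with 35 on chromosome 7, 22 on chromosome 17, 20 on chromosome 4, 16 on chromosome 8, 15 on chromosome 2 and 10 on chromosome 13. Of the 171 members, 86 lay within 100 kb of another member, and the longest run, on chromosome 17, held 9 genes. The median gene span was 17.6 kb, beside 17.4 kb for all protein-coding genes.

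The promoters of 8 members are printed to show the letters behind the results that follow. Each is the 250 bases before the transcription start in RefSeq, on the strand of the gene, in build GRCm38.p6, and capitals mark CCAAT (read as ATTGG on the other strand) and the longer motif CCGGAAGT, the core bound by ETS factors. Zfp994 and Zfp984 had the lowest KO over Ctrl ratios discussed below at a promoter and in a gene body, and Zfp655 and Zfp664 show CpG-rich promoters that lacked CCAAT. Zfp868 and Zfp959 were among the members with the highest promoter level, and Zfp966 and Zfp967 are a duplicated pair with no peak.
Zfp994, chr17:22225615-22225864, minus strand: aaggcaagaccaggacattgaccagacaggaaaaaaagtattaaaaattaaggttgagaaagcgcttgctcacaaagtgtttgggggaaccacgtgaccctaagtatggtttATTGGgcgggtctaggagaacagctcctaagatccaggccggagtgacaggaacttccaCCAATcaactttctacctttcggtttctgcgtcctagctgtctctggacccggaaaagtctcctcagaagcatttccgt
Zfp984, chr4:147809789-147810038, minus strand: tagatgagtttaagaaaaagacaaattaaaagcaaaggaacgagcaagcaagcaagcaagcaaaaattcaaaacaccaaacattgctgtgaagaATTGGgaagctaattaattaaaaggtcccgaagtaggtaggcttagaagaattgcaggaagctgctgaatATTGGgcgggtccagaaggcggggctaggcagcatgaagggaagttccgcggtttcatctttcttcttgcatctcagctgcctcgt
Zfp655, chr5:145231492-145231741, plus strand: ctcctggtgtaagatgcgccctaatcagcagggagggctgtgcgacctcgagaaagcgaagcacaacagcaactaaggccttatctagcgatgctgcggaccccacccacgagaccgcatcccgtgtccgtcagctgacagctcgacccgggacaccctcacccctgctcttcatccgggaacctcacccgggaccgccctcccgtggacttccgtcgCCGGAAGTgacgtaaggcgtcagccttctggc
Zfp664, chr5:124862455-124862704, plus strand: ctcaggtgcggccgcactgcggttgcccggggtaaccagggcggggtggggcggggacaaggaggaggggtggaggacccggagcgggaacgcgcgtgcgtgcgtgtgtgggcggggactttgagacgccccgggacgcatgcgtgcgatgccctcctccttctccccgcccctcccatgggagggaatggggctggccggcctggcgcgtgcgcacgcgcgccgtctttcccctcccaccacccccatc
Zfp868, chr8:69625549-69625798, minus strand: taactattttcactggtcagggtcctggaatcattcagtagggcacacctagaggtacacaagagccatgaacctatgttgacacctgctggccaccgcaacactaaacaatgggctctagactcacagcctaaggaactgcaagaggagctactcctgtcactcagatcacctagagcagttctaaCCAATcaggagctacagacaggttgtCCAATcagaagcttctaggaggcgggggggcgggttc
Zfp959, chr17:55891843-55892092, plus strand: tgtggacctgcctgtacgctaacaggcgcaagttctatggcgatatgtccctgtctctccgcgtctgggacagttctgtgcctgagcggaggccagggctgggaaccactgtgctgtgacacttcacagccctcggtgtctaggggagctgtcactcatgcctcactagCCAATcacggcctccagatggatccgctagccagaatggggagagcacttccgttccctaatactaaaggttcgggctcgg
Zfp966, chr2:175931101-175931350, minus strand: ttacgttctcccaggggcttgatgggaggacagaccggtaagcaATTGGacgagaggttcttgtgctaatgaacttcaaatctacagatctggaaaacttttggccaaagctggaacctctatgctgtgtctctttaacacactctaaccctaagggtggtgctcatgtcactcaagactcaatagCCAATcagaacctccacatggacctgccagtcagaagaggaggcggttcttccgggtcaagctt
Zfp967, chr2:176520754-176521003, plus strand: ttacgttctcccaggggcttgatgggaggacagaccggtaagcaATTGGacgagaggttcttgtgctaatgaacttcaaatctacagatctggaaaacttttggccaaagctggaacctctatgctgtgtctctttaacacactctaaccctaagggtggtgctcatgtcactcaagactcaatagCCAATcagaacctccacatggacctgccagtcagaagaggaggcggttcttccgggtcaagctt

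A RefSeq promoter was matched for 144 members. CCAAT, the letters bound by the trimeric factor NF-Y, occurred on either strand in 60.4% of these 144 windows of 250 bases, in 38.5% of 156 promoters of Zfp genes numbered below 600 and in 36% of 16522 promoters of all protein-coding genes. It was found in 68.0% of the 103 KRAB promoters and in 41.5% of the 41 others. KRAB promoters also held fewer CpG dinucleotides, with a median of 7, than the others, with a median of 14. CCGGAAGT occurred in 6.2% of member promoters, GGGCGG (letters bound by SP factors) in 41.0% and AAGATGGCG (bound by YY1) in 0.7%, each on either strand, and in all promoters in 4.0%, 44.3% and 0.7%. A match to such letters is a description of the sequence and not a measured binding site. Many member promoters descend from one another by duplication, so they are not independent examples.

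H3K27ac was present at most of these promoters. A promoter peak was found for 120 of the 171 members (70.2%), for 79.9% of the 194 Zfp genes below 600 and for 57.6% of all protein-coding genes. A gene body peak was found for 66 members (38.6%), beside 46.4% and 50.6%. There were 59 members with both, 61 with a promoter peak alone, 7 with a gene body peak alone and 44 with neither. KRAB members and the others had a promoter peak at close rates, 68.1% and 74.5%, but a gene body peak in 27.6% and 61.8%.

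The members without a promoter peak had, by median, more repeated sequence around their start sites than those with one. Repetition was measured as the share of 31-base words within 500 bp of the start sites that occur elsewhere in the genome, and its median was 45.4% in the 51 members with no promoter peak and 2.6% in the 120 with one. Of the 103 members with up to 10% repeated words, 79.6% had a promoter peak, as had 80.0% of the 30 with over 10 to 50% and 36.8% of the 38 with over 50%. The members on chromosomes 4 and 2 stood apart, since 4 of 20 and 6 of 15 had a promoter peak and the median repeated share was 70.9% and 85.6%. On chromosome 2, Zfp965, Zfp966, Zfp967, Zfp968, Zfp969 and Zfp973 had 100% repeated words and no promoter peak, and the printed promoters of Zfp966 and Zfp967 were equal at 250 of 250 positions. The authors kept uniquely mapped reads alone, so an absent peak at such a gene is not a measurement of absent H3K27ac, and the part of read mapping in the missing peaks was not tested. Repetition did not go with every missing peak, because 21 members with up to 10% repeated words had none, among them Zfp623, Zfp637, Zfp641 and Zfp704 at 0.0%.

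**Figure D1:**
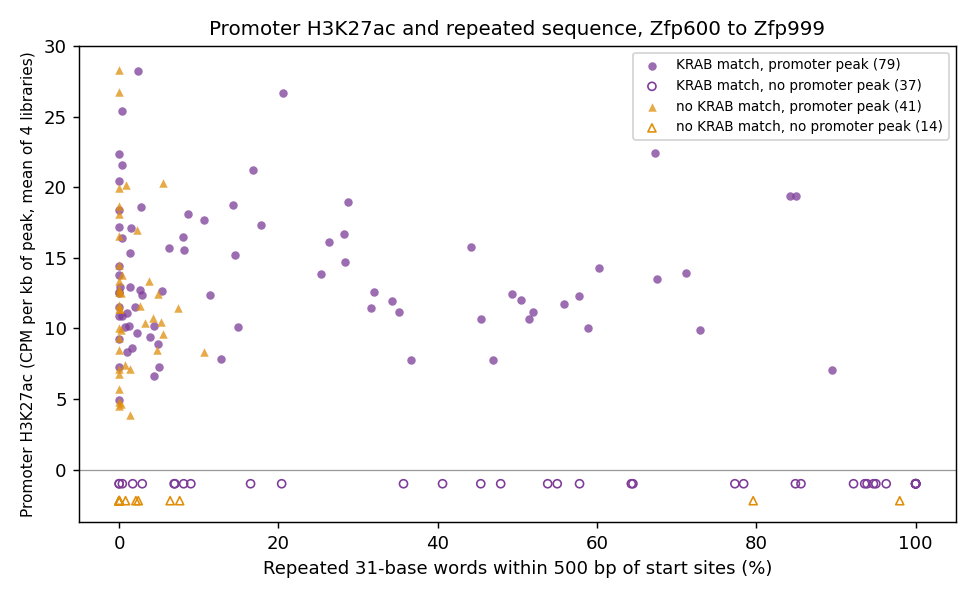
Each point is a member gene, with the share of repeated 31-base words around its start sites on the x axis (%) and its promoter H3K27ac on the y axis (CPM per kb of peak, mean of 4 libraries). Purple circles are the members with a KRAB match and orange triangles the others, and open symbols below 0 are the 51 members with no promoter peak, which hold most of the points at the right.

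Where a promoter peak was present, its level per kb was close to that of other genes, while the level summed per gene was lower. Per kb of peak, the median of the 114 tested members was 12.5 CPM, beside 13.0 for the Zfp genes below 600 and 13.0 for all genes tested. The summed width of the promoter peaks of a gene had a median of 1763.5 bp in members and 2256.5 bp in all genes. Summed per gene, the promoter level had a median of 21.4 CPM in members. It was 24.6 CPM in the Zfp genes below 600 and 30.2 CPM in all genes tested. The 120 members with a promoter peak spanned 3.86 to 28.3 CPM per kb, with quartiles at 9.98 and 16.4. KRAB members had a median of 12.6 CPM per kb and the others 11.6. Gene body peaks of the 41 tested members had a median of 7.32 CPM per kb, beside 7.31 for all genes.

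The 8 members with the highest promoter level per kb were Zfp784 (28.3 CPM per kb), Zfp688 (28.2), Zfp687 (26.8), Zfp868 (26.7), Zfp963 (25.4), Zfp959 (22.4), Zfp606 (22.3) and Zfp788 (21.6). The first of them, Zfp784, lay above 98.7% of all gene promoters tested and the last, Zfp788, above 92.1%. Zfp687, whose protein is found in a complex with the related protein Zfp592 and the histone reader Zmynd8, gave 74.7 and 78.6 CPM in Ctrl and 66.7 and 93.7 CPM in KO. The KO libraries lay on both sides of the Ctrl libraries, and the log2 fold change, KO over Ctrl, was 0.07 (SE 0.26). Zfp784 likewise overlapped between the groups, with 19.9 and 22.6 CPM in Ctrl and 22.7 and 20.6 CPM in KO. Zfp868 and Zfp963 belong to a run of 5 KRAB genes on chromosome 8 (69610857 to 69791178), where Zfp964 had no promoter peak and Zfp866, above 67.2% of all promoters per kb, took most of its counts from a peak that is also a promoter peak of Atp13a1. The summed promoter level of that run, with the shared peak, was 137 and 181 CPM in Ctrl and 119 and 149 CPM in KO.

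No member promoter passed the test between KO and Ctrl. Of 114 member promoters tested by the edgeR quasi-likelihood test, 0 were called at an adjusted p under 0.05 (0.0% of all 11562 genes in either direction), and DESeq2 also called 0. At an unadjusted p under 0.05, edgeR gave 0 members higher in KO (0.83% of all genes) and 2 lower (0.458%), and DESeq2 gave 0 (0.536%) and 2 (0.234%). The median log2 fold change was −0.02 in members and 0.07 in all genes tested, with 55 members above 0 and 59 below, so 48.2% of members and 58.8% of all genes were above 0. KO exceeded Ctrl in both libraries without overlap at 16 member promoters (14.0%, beside 17.8% of all genes) and lay below it in the same way at 13 (11.4%, beside 8.93%). The KRAB members had a median of −0.01 and the others of −0.07, and the Zfp genes below 600 of 0.00.

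The 2 promoters with an unadjusted p under 0.05 were Zfp831 and Zfp994. Zfp831, a zinc finger gene with 2 fingers and no KRAB match on chromosome 2, gave 16.3 and 24.7 CPM in Ctrl and 8.20 and 9.58 CPM in KO. Both KO libraries lay below both Ctrl libraries, with a log2 fold change of −1.20 (SE 0.42) and an adjusted p of 0.999 by edgeR. The signal was 1 peak of 2068 bp (chr2:174644425-174646492) that began 891 bp from the start site and overlapped an exon, and without each library in turn the log2 fold change lay between −1.47 and −0.86. The 7 gene body peaks of Zfp831 summed to 31.2 and 40.8 CPM in Ctrl and 30.6 and 30.7 CPM in KO, with a log2 fold change of −0.24 (SE 0.41).

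Zfp994, a KRAB gene with 17 fingers at the end of the run of 9 genes on chromosome 17, had 12.7 and 9.23 CPM in Ctrl and 2.98 and 4.55 CPM in KO. The groups did not overlap, the log2 fold change being −1.50 (SE 0.63) and the adjusted p by edgeR 0.999. Its single peak (chr17:22225110-22225721) covered the start site and part of the CCAAT-containing promoter printed above, and rested on 28 and 31 counts for Ctrl against 8 and 19 for KO. Of the 31-base words around this start, 50.5% occur elsewhere in the genome. Other genes of the same run gave values on both sides of 0. Zfp983 had 57.0 and 39.9 CPM in Ctrl and 49.6 and 47.9 CPM in KO, Zfp948 had a log2 fold change of 0.03, Zfp947 one of −0.80, and Zfp942 and Zfp943, which share their promoter peak, one of 0.43. Over the 8 genes of that run with a promoter peak, 4 were higher and 4 lower in KO, and their summed level was 191 and 129 CPM in Ctrl and 174 and 148 CPM in KO. The peak shared by Zfp942 and Zfp943 entered both this tally and this sum under each gene, so the values are not all separate.

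Of the other promoters that lay lower in both KO libraries, Zfp655, a KRAB gene with 7 fingers, had the closest replicates. It had 71.5 and 72.3 CPM in Ctrl and 50.7 and 49.1 CPM in KO, from a peak of 3543 bp over its start (chr5:145231066-145234608). Its log2 fold change of −0.53 (SE 0.25, adjusted p = 0.999 by edgeR) stayed between −0.57 and −0.52 without each library in turn. Zfp984 had 58.8 and 38.1 CPM in Ctrl and 35.4 and 32.6 CPM in KO (log2 fold change −0.50, SE 0.30), and −0.17 without Ctrl 1. Zfp869 had 6.79 and 8.04 CPM in Ctrl and 4.84 and 1.20 CPM in KO, with a log2 fold change of −1.36 (SE 0.84) that lay between −2.61 and −0.65 without each library. Both peaks of Zfp869 lay outside the gene, 1002 and 2632 bp from its start.

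The 5 promoters that lay higher in both KO libraries with the smallest p were Zfp664, Zfp846, Zfp839, Zfp786 and Zfp850. Zfp664, a gene with 9 fingers and no KRAB match, had 14.0 and 8.93 CPM in Ctrl and 17.1 and 20.4 CPM in KO, a log2 fold change of 0.73 (SE 0.42) that lay between 0.43 and 1.06 without each library. Its peak is also a promoter peak of the neighbouring gene Ccdc92, so the 2 genes cannot be told apart. Zfp846 had 4.07 and 3.57 CPM in Ctrl and 7.82 and 8.39 CPM in KO (log2 fold change 1.09, SE 0.67). Its summed KO values lay close together and above both Ctrl libraries, but its 2 peaks did not agree. The peak over the start site held 32 counts in KO 2, 7 in KO 1, 7 in Ctrl 1 and 10 in Ctrl 2. The other peak, 2042 bp away, held 14 in KO 1, 3 in KO 2 and 2 in each Ctrl library. Peak by peak, the KO libraries of Zfp846 thus did not repeat each other. Zfp839 had 15.8 and 15.5 CPM in Ctrl and 28.7 and 18.5 CPM in KO (0.58, SE 0.37, and 0.22 without KO 1). Zfp786 had 2.26 and 2.98 CPM against 4.47 and 7.67 CPM (1.20, SE 0.80, and 0.71 without KO 2), and Zfp850 had 8.14 and 16.4 CPM against 16.4 and 18.9 CPM (0.50, SE 0.44, and 0.11 without Ctrl 1). None of the 5 passed the test, and for Zfp850 the higher Ctrl library was level with the lower KO library.

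**Figure D2:**
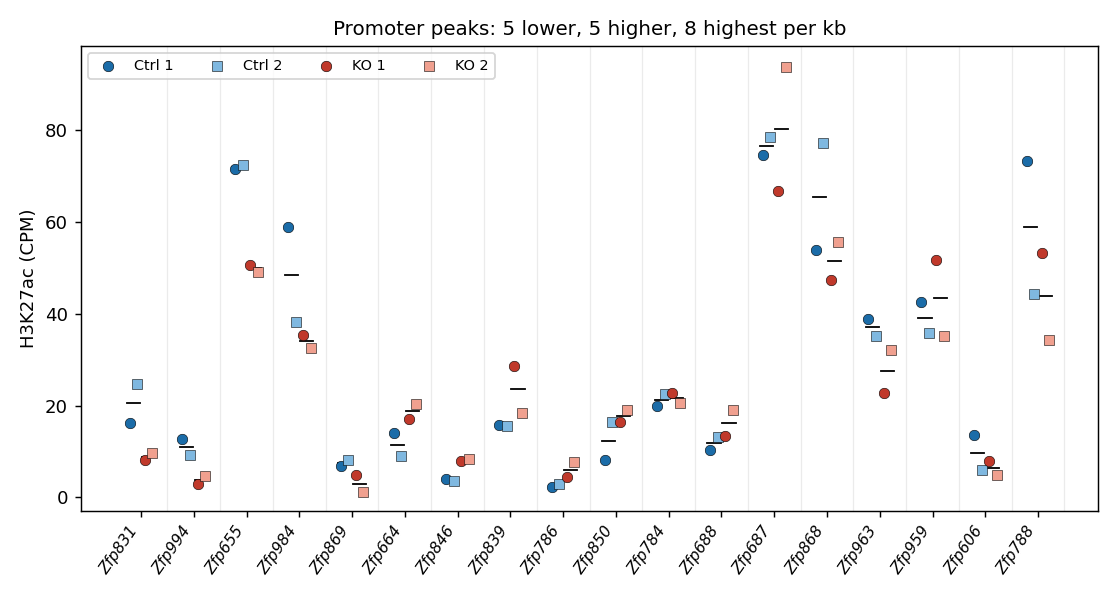
Promoter H3K27ac (CPM, y axis) of 18 member genes in each library, with Ctrl in blue and KO in red, library 1 as circles and library 2 as squares, and a bar at the mean of each pair. The first 5 genes lay lower in both KO libraries, the next 5 higher, and the last 8 had the highest level per kb; Zfp655 showed tight pairs near 72 and 50 CPM, whereas at Zfp788 the libraries of each pair lay far apart.

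In gene bodies, where H3K36 trimethylation is placed, members lay lower in KO about as often as other genes did. Of 41 member gene bodies tested, 0 were called by edgeR at an adjusted p under 0.05 (0.0% of all 9247 genes in either direction) and 0 by DESeq2. At an unadjusted p under 0.05, edgeR gave 0 members higher (0.757% of all genes) and 2 lower (8.01%), and DESeq2 gave 0 (0.314%) and 2 (6.42%). The median log2 fold change was −0.22 in members and −0.16 in all genes. Both KO libraries lay below both Ctrl libraries for 13 members (31.7%, beside 27.8% of all genes) and above them for 4 (9.76%, beside 10.2%). The 14 tested KRAB members had a median of −0.38 and the 27 others of −0.03, beside −0.255 for the Zfp genes below 600. The order was the opposite for KO libraries both below Ctrl, with 3 KRAB members (21.4%) and 10 of the others (37.0%). KRAB gene bodies were also weaker, with a median of 4.95 CPM and a median SE of 0.95, beside 15.1 CPM and 0.54 for the others. Of the 171 members 130 had too few gene body counts or no gene body peak and were not tested.

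Zfp984, a KRAB gene with 11 fingers on chromosome 4, had the lowest value. Its 1 gene body peak (chr4:147793841-147794265, intronic) rested on 17 and 19 counts for Ctrl against 2 and 1 for KO, or 7.69 and 5.65 CPM against 0.745 and 0.240 CPM. The KO over Ctrl ratio of the summed counts, 3 against 36 after scaling, was 0.0677. Its exact Clopper-Pearson 95% interval was 0.0133 to 0.214, which covers counting error only. The peak met the count limit for testing through the Ctrl libraries alone. It was also picked as the lowest value, and the interval allows for neither. The adjusted p was 0.344 by edgeR. The promoter peaks of Zfp984 did not all follow. The peak over the printed promoter (chr4:147808187-147810372) had 43.0 and 27.1 CPM in Ctrl and 32.0 and 25.9 CPM in KO. A peak near an inner start site (chr4:147778599-147779103) had 9.05 and 4.17 CPM in Ctrl and 1.86 and 1.68 CPM in KO, and another (chr4:147774242-147775060) had 6.79 and 6.84 CPM against 1.49 and 5.03 CPM. The peak at the outermost start thus overlapped between the groups and the inner peaks of the gene lay lower in KO. Of the words around the start sites of Zfp984, 55.9% occur elsewhere in the genome.

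Zfp746, also called PARIS, a KRAB zinc finger protein that represses the mitochondrial coactivator gene Ppargc1a, had 38.5 and 52.4 CPM over 6 gene body peaks in Ctrl and 17.9 and 29.0 CPM in KO. Both KO libraries lay below both Ctrl libraries, with a log2 fold change of −0.95 (SE 0.41) and an adjusted p of 0.5 by edgeR. Each of the 6 peaks had a negative log2 fold change, from −2.00 to −0.62, but they are parts of that sum and give no separate support. One of them (chr6:48077459-48077747) reached 10 counts in the Ctrl libraries alone. Its promoter peaks summed to 29.0 and 37.5 CPM in Ctrl and 32.4 and 35.2 CPM in KO (log2 fold change 0.02, SE 0.30), so the promoter overlapped while the body did not. Zfp787 had 36.7 and 52.1 CPM over 8 gene body peaks in Ctrl and 25.7 and 25.4 CPM in KO (log2 fold change −0.80, SE 0.41, −0.52 without Ctrl 2, adjusted p = 0.574 by edgeR). The promoter of Zfp787 was one of the strongest by total, with 104.5 and 96.7 CPM in Ctrl and 93.9 and 81.2 CPM in KO. There too both KO libraries lay below both Ctrl libraries, with a log2 fold change of −0.21 by DESeq2. Zfp740 had 10.4 and 19.9 CPM in its body in Ctrl and 8.94 and 8.39 CPM in KO (log2 fold change −0.82, SE 0.60, and −0.26 without Ctrl 2).

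The 4 members that lay higher in both KO gene bodies with the smallest p were Zfp800, Zfp961, Zfp704 and Zfp750. Zfp704 carried 18 gene body peaks and no promoter peak, and had 68.8 and 77.7 CPM in Ctrl and 104.7 and 81.7 CPM in KO (log2 fold change 0.34, SE 0.32, and 0.14 without KO 1). The other 3 were weak. Zfp961 had 1.81 and 4.17 CPM in Ctrl and 8.57 and 5.51 CPM in KO, and Zfp750, a regulator of epidermal differentiation, had 3.17 and 1.79 CPM against 4.47 and 4.55 CPM. The gene body peaks of Zfp961 also overlap the gene Cyp4f18, and that of Zfp750 the gene Tbcd, so the genes cannot be told apart there. Zfp800 held 1.81 and 0.0 CPM in Ctrl and 5.22 and 4.79 CPM in KO, so that few counts stand behind its difference (SE 1.33). The gene bodies of Zfp750 and Zfp800 met the count limit for testing through the KO libraries alone, the group in which they were higher.

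**Figure D3:**
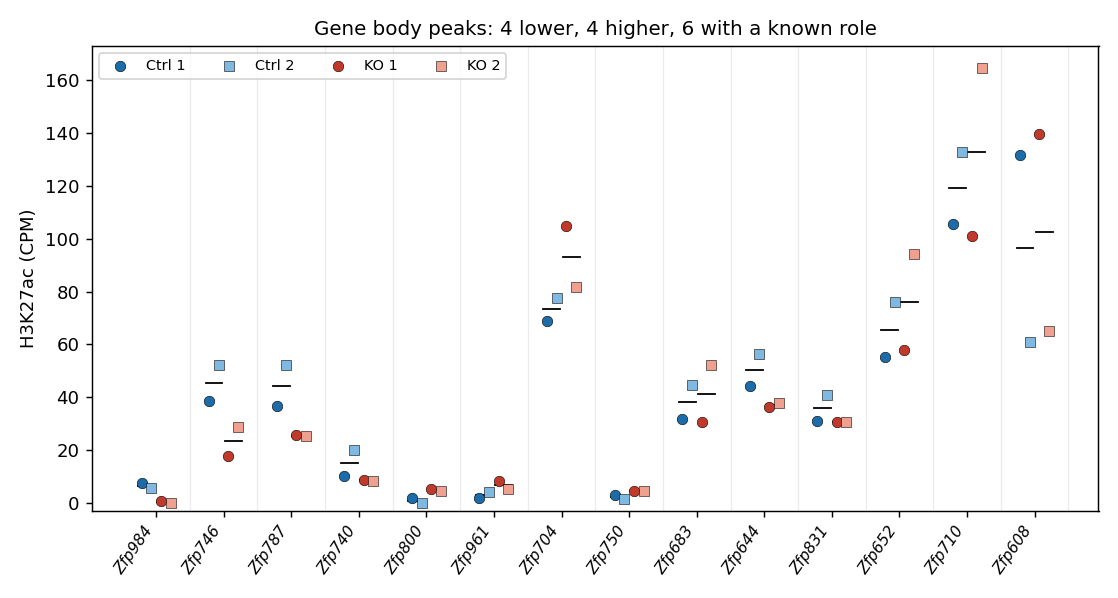
Gene body H3K27ac (CPM, y axis) of 14 member genes in each library, drawn as in the plot of promoter values, with Ctrl in blue, KO in red and a bar at the mean of each pair. The first 4 genes lay lower in both KO libraries, the next 4 higher, and the last 6 have a known role; at Zfp608 library 1 of both genotypes lay near 132 to 140 CPM and library 2 near 61 to 65 CPM.

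Several members are known for roles in lymphocytes or in chromatin. Zfp683 (Hobit), a transcription factor of tissue-resident lymphocytes, had no promoter peak and 1 gene body peak (chr4:134057136-134059521), which reaches past the gene and also overlaps Crybg2. That peak had 31.7 and 44.6 CPM in Ctrl and 30.6 and 52.2 CPM in KO (log2 fold change 0.12, SE 0.39), and the groups overlapped. Zfp809, which silences proviruses of murine leukaemia virus through Trim28, had 31.7 and 20.8 CPM at its promoter in Ctrl and 31.3 and 31.9 CPM in KO (0.28, SE 0.32). Zfp932, a repressor of endogenous retroviruses, had 30.8 and 22.9 CPM against 30.9 and 20.4 CPM (−0.07, SE 0.34). Neither of these KRAB genes differed between the groups by more than the spread within them.

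Zfp644, a partner of the H3K9 methyltransferases G9a and GLP, had 32.1 and 28.0 CPM at its promoter in Ctrl and 31.3 and 21.8 CPM in KO. Over its 12 gene body peaks it had 44.3 and 56.3 CPM in Ctrl and 36.5 and 37.9 CPM in KO (log2 fold change −0.44, SE 0.38), both KO libraries being lower. Zfp652, a transcriptional repressor, had 55.2 and 75.9 CPM over 8 gene body peaks in Ctrl and 57.8 and 94.2 CPM in KO. The peak with the most counts (chr11:95833838-95836368), 57 and 127 in Ctrl and 90 and 227 in KO, is also a peak of Abi3 and Gngt2. Others of the 8 are also peaks of Phospho1. Zfp710 was stronger in its body, with 105.4 and 132.7 CPM over 10 peaks in Ctrl and 101.0 and 164.6 CPM in KO. Zfp652 and Zfp710 overlapped between the groups. Zfp608 had 131.7 and 61.0 CPM over 21 gene body peaks in Ctrl and 139.7 and 65.2 CPM in KO. Here the libraries numbered 1 lay above those numbered 2 in both genotypes, while the log2 fold change between genotypes was 0.09 (SE 0.33). The largest number of gene body peaks, 38, was found in Zfp827, which had 138.4 and 150.6 CPM in Ctrl and 129.3 and 112.4 CPM in KO.

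The remaining members with a known role had promoter values that overlapped or differed by less than their error. The log2 fold changes were 0.01 (SE 0.32) for Zfp638, which takes part in silencing unintegrated retroviral DNA, 0.12 (SE 0.27) for Zfp703, a corepressor, and 0.01 (SE 0.28) for Zfp706. They were −0.19 (SE 0.33) for Zfp639, 0.24 (SE 0.34) for Zfp692, and −0.05 (SE 0.31) for Zfp710. Zfp609, a partner of the cohesin loader Nipbl, had no promoter peak and 1 gene body peak, and Zfp711, an X-linked gene, had no peak.

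Tested peak by peak, 305 of the 462 member peaks had enough counts. edgeR called 0 of them, beside 1 of 74550 peaks in all (0.00134%, higher in KO), and DESeq2 called 0. At an unadjusted p under 0.05, edgeR gave 0 member peaks higher (1.45% of all peaks) and 7 lower (2.79%), and DESeq2 gave 0 (0.597%) and 4 (1.37%). The 7 belonged to 6 genes, with 2 in Zfp984 and 1 each in Zfp644, Zfp787, Zfp827, Zfp831 and Zfp994. The peak over the start of Zfp827 (chr8:79028404-79029254) had 18.5 and 11.6 CPM in Ctrl and 5.22 and 8.87 CPM in KO. The intronic peaks of Zfp644 (chr5:106623660-106624226) and Zfp787 (chr7:6135840-6136731) had 9.50 and 6.25 CPM against 1.86 and 3.11 CPM and 5.88 and 10.7 CPM against 2.61 and 2.64 CPM. At all 7 peaks, picked by that p, both KO libraries lay below both Ctrl libraries. The same order was found at 50 of the 305 member peaks (16.4%) and at 16.4% of all peaks tested. Both peaks of Zfp984 reached 10 counts in the Ctrl libraries alone. The median log2 fold change of the member peaks was −0.09, beside −0.01 for all peaks tested.

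**Figure D4:**
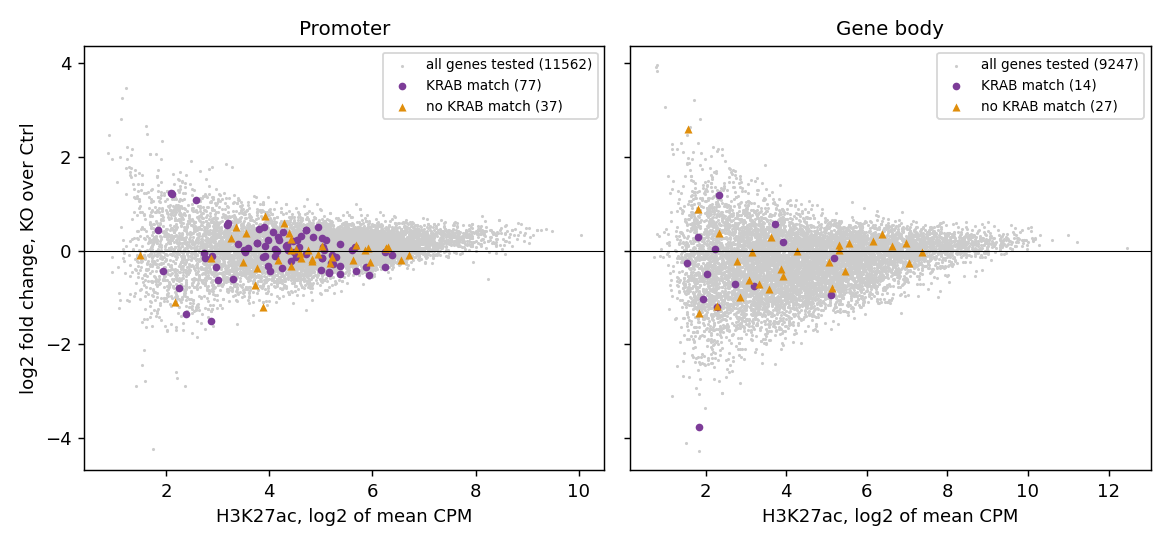
Log2 fold change of H3K27ac, KO over Ctrl (y axis), against the log2 of the mean CPM (x axis), for promoters (left) and gene bodies (right). Grey points are all genes tested, purple circles KRAB members and orange triangles the other members; the members lie within the cloud of all genes, with Zfp984 at −3.75 as the lowest member in gene bodies.

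The libraries were also ordered by their number at many KRAB promoters. Both libraries numbered 1 lay above both libraries numbered 2 at 47 of the 114 tested member promoters (41.2%, beside 29.3% of all genes), and the opposite order was found at 19 (16.7%, beside 23.4%). Among the 77 KRAB members 37 (48.1%) had library 1 above library 2 in both genotypes and 9 (11.7%) the opposite, while the 37 others had 10 of each. In gene bodies library 1 was the higher one in both genotypes for 8 of 41 members (19.1% of all genes) and library 2 for 10 (26.1%). Zfp958 had 103.6 and 67.9 CPM in Ctrl 1 and Ctrl 2 and 72.7 and 60.9 CPM in KO 1 and KO 2. Zfp788 had 73.3 and 44.3 CPM and then 53.3 and 34.3 CPM, and Zfp748 had 52.0 and 30.7 CPM and then 50.3 and 24.7 CPM. At these 3 promoters, chosen after their values were seen, the libraries numbered 1 were the higher ones of both genotypes. The median deviation of the KRAB promoters from their own mean over the libraries, on the log2 scale, was 0.20 and −0.12 for the Ctrl libraries and 0.11 and −0.10 for the KO libraries. The labels do not say what the library number stands for, depth was lower in library 1 of each genotype, and the part of either in this pattern was not tested.

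**Figure D5:**
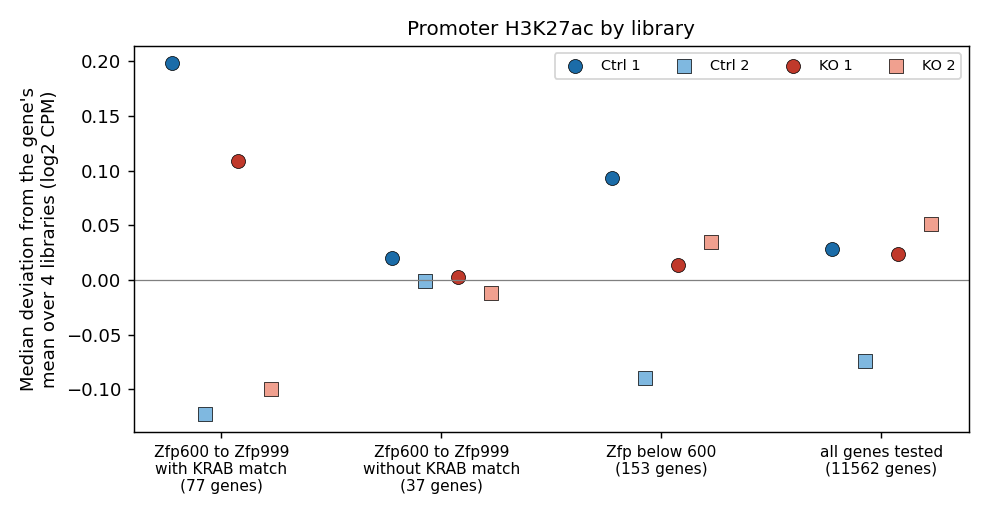
Median deviation of promoter H3K27ac from the mean of each gene over the 4 libraries (log2 CPM, y axis), by library, for KRAB members, other members, Zfp genes below 600 and all genes tested. Circles are library 1 and squares library 2, Ctrl in blue and KO in red; for KRAB members both circles lie above 0 (0.20 and 0.11) and both squares below (−0.12 and −0.10).

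As shares of all counts in peaks, the member promoters took 0.301% and 0.264% in Ctrl and 0.271% and 0.248% in KO, and the groups overlapped. Member gene bodies took 0.115% and 0.122% in Ctrl and 0.110% and 0.103% in KO, with both KO libraries lower. As a share of gene body counts alone the members took 0.26% and 0.248% in Ctrl and 0.254% and 0.227% in KO, where the groups overlapped. With 2 libraries against 2, no exact permutation test can pass 0.05, and none is given.

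The corepressor genes through which KRAB proteins act were read in the same way, from a list of 19. All 19 had a promoter peak and were tested, 0 were called by edgeR or DESeq2 and 0 had an unadjusted p under 0.05 by either, and their median log2 fold change was −0.02. Trim28, the direct KRAB partner, had 67.9 and 48.8 CPM at its promoter in Ctrl and 61.1 and 56.3 CPM in KO, with overlapping groups. Of 16 gene bodies tested, 0 were called and 2 lay lower at an unadjusted p under 0.05 by edgeR (8.01% of all genes) and 0 by DESeq2 (6.42%), with a median of −0.49 beside −0.16 for all genes. The 2 were Cbx5, which encodes the heterochromatin protein HP1α (11.3 and 28.3 CPM in Ctrl, 7.45 and 9.34 CPM in KO), and Mphosph8, a reader of H3K9 methylation in the HUSH complex (20.8 and 26.5 CPM in Ctrl, 8.94 and 13.7 CPM in KO).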

How the data were processed

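The authors sequenced H3K27ac CUT&Tag libraries as read pairs, aligned trimmed reads to mm10 with Bowtie2, kept uniquely mapped reads, removed duplicates, used MACS2 with IgG as the control to call peaks, which bedtools merged. The deposited values were raw counts per merged peak of 4 libraries, not normalized. Versions of these tools were not given in the sources used here. Peaks were thus called on the libraries compared. The IgG library was not analysed here.

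Peak counts were summed per protein-coding gene (GENCODE M21 basic, mm10) for promoter and gene body peaks, and a peak could serve several genes. Rows reaching 10 counts in 2 or more libraries were tested with the edgeR 4.0.16 quasi-likelihood test in R 4.3.3, with TMM factors of all tested peaks, no covariate, and Benjamini-Hochberg adjustment over all rows. SE values were derived from the F statistic. DESeq2 1.42.0, other scalings, filters and assignments, a replicate block and leaving out each library were the alternatives. The code was tested on simulated data. The series describes the libraries as biological replicates. Promoter letters came from RefSeq (GRCm38.p6) and repeated words from the same genome. The genes named were the 8 highest promoters per kb, the 5 higher and 5 lower promoters and 4 higher and 4 lower gene bodies with the smallest p among those with groups that did not overlap, and members with a known role. Members and lists were chosen with earlier results of these data known.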

Additional observations from a re-analysis of the deposited data

How the results depend on the processing

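No promoter, gene body or single peak of a member was called under any alternative, except 3 gene bodies with the replicate block. Libraries with the same number correlated in their deviations from the group means (r = 0.257 for Ctrl 1 with KO 1), but with 2 numbers this does not show a pairing. With the block, Zfp746 (−0.96), Zfp787 (−0.79) and Zfp984 (−3.77) passed an adjusted p of 0.05, as did 1009 of all gene bodies, on 1 residual degree of freedom, and it changed no other member call. The gene body median was −0.358 with genes of any count (66 members), and −0.345 to −0.178 without each library, each below that of all genes. It lay above that of all genes with at least 30 counts (−0.125, all genes −0.225) and with halved counts (−0.176, all genes −0.213). The loess offset also placed it above (−0.25, all genes −0.272). The median over single peaks was −0.189 without KO 1 and 0.041 without Ctrl 1, the lowest and highest of the 4. The promoter median ran from −0.1 without Ctrl 2 to 0.046 without Ctrl 1, was 0.022 without KO 2, and stayed below that of all genes except without KO 2, where all genes had 0.008. Total counts as library size moved it to −0.078 and that of all genes to 0.011. Of 341 alternative values of named members, 330 kept their direction. Zfp784 gave −0.08 with at least 30 counts, −0.04 with halved counts and with total counts, −0.06 with the loess offset, and −0.07 to 0.12 without each library. Zfp687 gave −0.04 with at least 30 counts, −0.12 with the loess offset and −0.23 to 0.27 without each library. Zfp606 ran from −1.12 to 0.06 (without Ctrl 1) and Zfp959 from −0.17 (without KO 1) to 0.38. With a 1 kb promoter limit the Zfp984 gene body gave −2.54. Halved counts were tried in case both mates of a pair were counted. Depth limits the gene body values of Zfp750, Zfp800 and Zfp984, which rest on at most 20 counts in any library.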
